A study of Mus musculus with 3 samples.

Results

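The CC chemokine genes of mouse chromosome 11 lie in 2 clusters, and the glucocorticoid receptor (GR) peaks listed within them were 10 in GRdim macrophages and 1 in wild-type macrophages. The 11 peaks, of 1898 in both lists together (822 GRdim and 1076 WT), are all those with a midpoint in chr11:83290000-83510000 or chr11:81800000-82000000 (mm9). The first window spans 220 kb and holds Ccl5, Ccl9, Ccl6, Ccl3 and Ccl4, and the second spans 200 kb and holds Ccl2, Ccl7 and Ccl12. The WT count depends on the borders: with the windows widened by 50 kb on both sides the first cluster held 3 WT peaks in place of 1 and 8 GRdim peaks in place of 7, and the second again held 0 and 3. The windows were selected on the listed peaks themselves, since the numbers and heights of peaks had been seen to differ between the lists there, so the number of peaks in each genotype and their heights are descriptions and carry no test.

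The macrophages were differentiated from femoral bone marrow of 12-week-old mice, back-crossed to BALB/c for 4 generations or more. Bound chromatin was recovered with an antibody against GR and sequenced (ChIP-seq). The WT library came from GR+/+ litter-mates of the GRdim mice. In GRdim mice the receptor is altered, in all cells, by an amino acid exchange in the part of the DNA-binding domain through which receptors pair. The labels name dexamethasone, a synthetic glucocorticoid, at 1 µM overnight, bacterial lipopolysaccharide (LPS) at 100 ng/ml for 3 hours, or both, and do not say which of these each library received. There was 1 ChIP library for each genotype, so the spread between animals is unknown. An input library is also described and was not analysed here.

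CC chemokines are small secreted proteins with adjacent cysteines near the amino terminus that draw leukocytes along a gradient through G protein-coupled receptors. Macrophages exposed to LPS transcribe many of them through NF-κB and AP-1, and glucocorticoids lower the production of several. GR acts on chromatin by binding DNA directly, as dimers at palindromic elements, or by joining other transcription factors that are already bound.

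A peak height is the authors' value for the 200 bp peak in its own library, taken as reads per 1000000 reads (RPM). No height under 1 RPM is listed; the lowest were 1.01 RPM in WT and 1.05 RPM in GRdim. A site that is not listed may be bound below the floor. The heights were whole multiples of 0.0676 RPM in WT and 0.0659 RPM in GRdim within 0.1 of a read, for 1076 of 1076 and 822 of 822 peaks, and were read as whole reads on that basis. No file states read numbers, and the lowest listed height is not itself the step but 15 steps in WT and 16 in GRdim, so the step is inferred and not seen directly. Every read number and interval below rests on this inference. The implied depths were about 14800000 and 15200000 reads. Intervals are 95% exact Poisson intervals on those reads and cover counting error only. Median heights were 1.22 RPM over the WT list and 1.25 RPM over the GRdim list. Chromosome 11 held 82 WT peaks and 70 GRdim peaks, and outside both windows 81 and 60. The windows thus held 14.3% of the GRdim peaks of the chromosome and 1.22% of its WT peaks.

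Genes are placed by the rounded mm9 positions that defined the windows, which are given for 4 of the 8 genes: Ccl5 at 83339000, Ccl3 at 83461000, Ccl4 at 83476000 and Ccl2 at 81849000. Distances below run from a peak's midpoint to such a position and are not distances to a start site; whether a peak is exonic, intronic or intergenic was not determined. The other genes are placed by order alone. In RefSeq's annotation of GRCm38 the order of the protein-coding genes is Heatr9, Ccl5, Ccl9, Ccl6, Ccl3 and Ccl4 in the first cluster, and Ccl2, Ccl7, Ccl11, Ccl12, Ccl8 and Ccl1 in the second.

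RefSeq's promoter windows (GRCm38.p6, 250 bases before to 50 after the gene's start, gene strand) matched 4 of the 8 genes, and are shown to let the letters near these genes be read beside the peaks. Ccl3 is shown as the gene with the stated position nearest the tallest GRdim peak and the lone WT peak, Ccl9 and Ccl6 as the genes of the stretch between Ccl5 and Ccl3, and Ccl12 as the matched gene of the second cluster. Capitals mark matches to the motifs described after them.
Ccl3 (chr11:83649329-83649628, minus strand): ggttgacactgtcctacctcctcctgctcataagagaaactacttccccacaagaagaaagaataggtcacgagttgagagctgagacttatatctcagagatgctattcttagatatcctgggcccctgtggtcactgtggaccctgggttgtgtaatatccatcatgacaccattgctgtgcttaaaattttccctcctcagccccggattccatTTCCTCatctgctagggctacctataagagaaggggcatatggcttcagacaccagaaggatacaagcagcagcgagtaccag
Ccl9 (chr11:83578587-83578886, minus strand): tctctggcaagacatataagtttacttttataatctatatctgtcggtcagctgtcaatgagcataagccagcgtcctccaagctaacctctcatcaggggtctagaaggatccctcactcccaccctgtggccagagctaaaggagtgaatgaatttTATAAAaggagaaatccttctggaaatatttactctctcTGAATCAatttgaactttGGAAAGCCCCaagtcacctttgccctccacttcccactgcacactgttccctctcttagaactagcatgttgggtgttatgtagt
Ccl6 (chr11:83593038-83593337, minus strand): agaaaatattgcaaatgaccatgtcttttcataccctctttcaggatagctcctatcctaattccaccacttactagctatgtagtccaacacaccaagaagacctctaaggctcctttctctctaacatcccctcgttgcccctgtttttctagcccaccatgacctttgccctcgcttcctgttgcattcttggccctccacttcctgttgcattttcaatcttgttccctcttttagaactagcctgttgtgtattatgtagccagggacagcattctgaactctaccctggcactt
Ccl12 (chr11:82101595-82101894, plus strand): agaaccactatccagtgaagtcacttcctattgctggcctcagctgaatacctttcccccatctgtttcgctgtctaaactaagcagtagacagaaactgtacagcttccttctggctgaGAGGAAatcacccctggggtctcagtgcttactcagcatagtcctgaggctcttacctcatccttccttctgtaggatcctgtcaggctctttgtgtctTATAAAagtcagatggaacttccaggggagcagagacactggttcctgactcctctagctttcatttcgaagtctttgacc

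The motifs were searched on both strands, except the TATA box, which was searched on the gene's strand. The GR half-site AGAACA was found in 0 of the 4 windows and in 19% of all 32851 promoter windows. The palindrome of that half-site with a spacer of any 3 bases was found in 0 of the 4 and in 0.00913% of all windows. In Ccl9 the capitals are matches that do not overlap. The TATA motif (TATAAA) begins 92 bases before the start, farther from it than the 31 bases in Ccl12. The AP-1 pattern TGANTCA, which allows any middle base and here reads TGAATCA, begins at 53 bases. An NF-κB consensus match on the opposite strand begins at 35 bases. Over all windows these motifs were found in 8.32%, 7.81% and 8.46%. The motif GAGGAA, a core bound by the macrophage factor PU.1 and other ETS proteins, was found in Ccl12 on the gene's strand, 130 bases before the start, and in Ccl3 on the opposite strand, where it reads TTCCTC in the printed sequence, 33 bases before the start; 28.3% of all windows hold them. Ccl12 also has a TATA box at 31 bases. The STAT motif TTCNNNGAA was found in 0 of the 4 windows and in 8.3% of all. The Ccl6 window held none of the 7 motifs. Ccl9 and Ccl6, which encode closely related ligands of CCR1, shared a run of 13 bases, gccctccacttcc, that begins 14 bases before the start of Ccl9 and 55 before that of Ccl6. A match is a run of letters and not a measured site, and a window without a match says nothing of the factor. No peak could be placed on these windows, since they are of another build than the peaks.

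**Figure D1:**
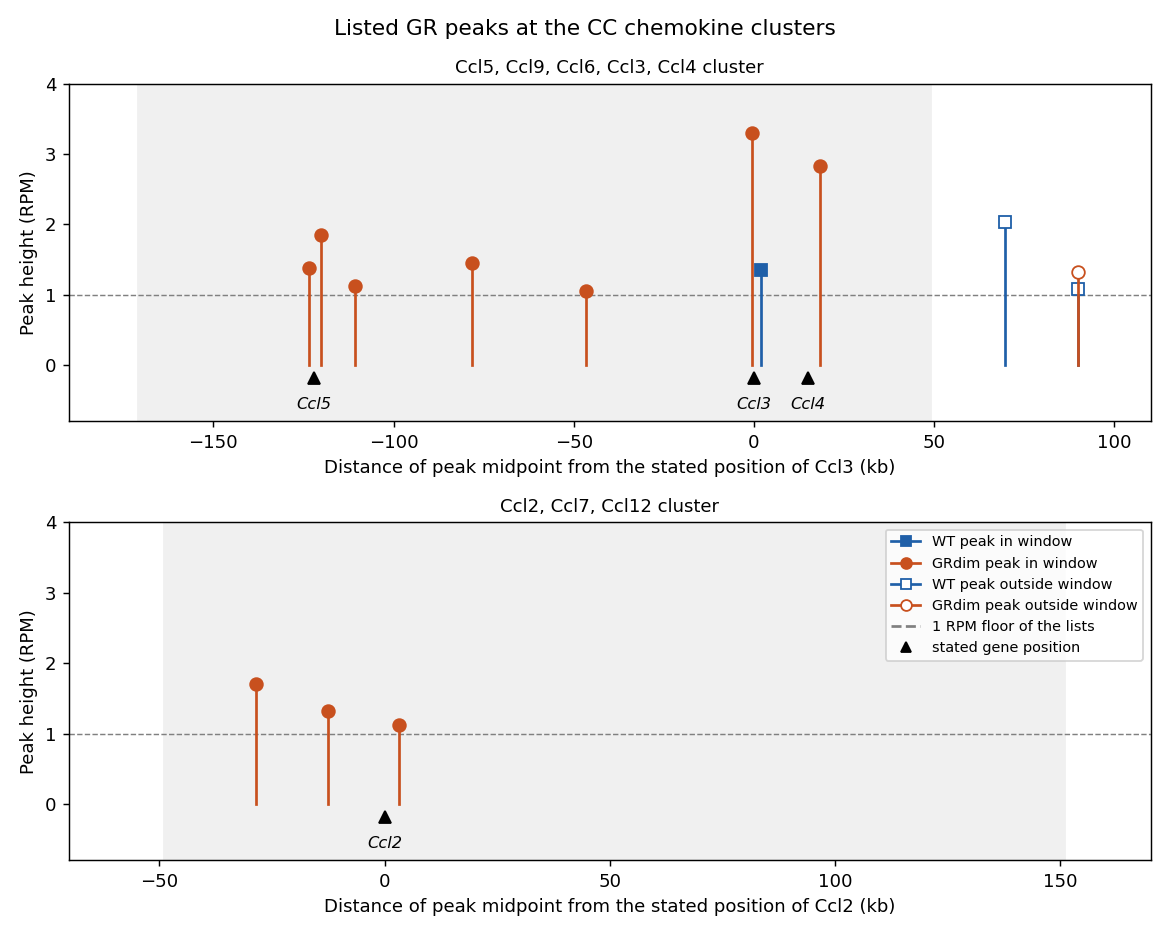
Peak height (RPM, vertical axis) against distance in kb from the stated position of Ccl3 (upper panel) or Ccl2 (lower panel), with WT peaks as blue squares and GRdim peaks as orange circles, filled inside the windows (grey) and open outside them. The 2 tall GRdim peaks stand near the stated positions of Ccl3 and Ccl4. The only WT peak in a window stands between those positions, and the lower panel holds no WT peak.

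In the Ccl5 to Ccl4 cluster the GRdim list held 7 peaks of 1.05 to 3.30 RPM (median 1.45) and the WT list 1 peak of 1.35 RPM. The 7 GRdim peaks summed to 12.98 RPM (197 reads, interval 170 to 227) over 1400 bp of listed peaks, a mean of 1.9 RPM per peak. The WT sum was that of its single peak, 20 reads (12.2 to 30.9) over 200 bp. No GRdim peak of the cluster overlapped a WT peak. Over the whole lists, 70.6% of GRdim peaks overlapped no WT peak and 77.5% of WT peaks overlapped no GRdim peak, so most listed peaks lacked a partner in the other library and nothing is read from their absence here.

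The GRdim peak with the greatest height in either cluster stood at Ccl3, which encodes MIP-1α, an inflammatory chemokine released by activated macrophages. It lay at chr11:83460273-83460472, 0.6 kb from the stated position of the gene, with 50 reads and 3.30 RPM (2.44 to 4.34). It ranked 11 of 822 in the GRdim list, and 98.7% of that list was lower. No WT peak overlapped it.

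The lone WT peak lay between the stated positions of Ccl3 and Ccl4, at chr11:83462870-83463069. It was 2.0 kb above the stated position of Ccl3 and 2.6 kb from the tall GRdim peak. Ccl3 is on the minus strand, read toward lower positions, and whether this peak lies at its start or between the genes was not determined. The peak held 20 reads and stood at 1.35 RPM (0.83 to 2.09), rank 351 of 1076, with 60.8% of the WT list below it. The intervals of the WT peak and of its GRdim neighbour do not overlap, but the 2 peaks are at different sites, so these heights do not compare 1 site between genotypes. Between the stated positions of Ccl3 and Ccl4, 15 kb apart, the WT list had this 1 peak and the GRdim list 0.

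The second of the tall GRdim peaks stood at Ccl4, which encodes MIP-1β, a related chemokine that is often transcribed together with Ccl3. It lay at chr11:83479207-83479406, 3.3 kb from the stated position, with 43 reads and 2.83 RPM (2.05 to 3.82), and ranked 20 of 822. The nearest WT peak was the one at Ccl3, 16.3 kb away. The 2 peaks at Ccl3 and Ccl4, 18.9 kb apart, made up 6.13 RPM, or 47.2% of the cluster's summed GRdim height. They were the only ones of the 10 GRdim peaks at 2 RPM or more, a height that 10.9% of all GRdim peaks reached. Of GRdim peaks that tall, 38.9% overlapped no WT peak, a smaller share than over all heights; the share for WT peaks of 2 RPM or more without a GRdim partner was 60.7%.

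Ccl5 encodes RANTES, which attracts T cells and monocytes. A pair of GRdim peaks flanked its stated position. The peak at chr11:83337588-83337787, 1.3 kb below it, held 21 reads and stood at 1.38 RPM (0.86 to 2.11). The peak at chr11:83340699-83340898, 1.8 kb above it, held 28 reads and stood at 1.85 RPM (1.23 to 2.67), the third in height in the cluster and rank 122 of 822. A further peak at chr11:83350259-83350458, 11.4 kb above, held 17 reads (1.12 RPM, 0.65 to 1.79). These intervals overlap one another, so the 3 heights at Ccl5 cannot be ordered at this depth. The nearest WT peak was 112.6 to 125.3 kb away from them.

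Between Ccl5 and Ccl3 lie Ccl9, which encodes MIP-1γ, and Ccl6, which encodes C10. Over the 122 kb between the stated positions of Ccl5 and Ccl3 the GRdim list had 5 peaks and the WT list 0. Beyond the 2 such peaks near Ccl5 and the tall one at Ccl3, the remaining 2 stood alone. One was at chr11:83382733-83382932 (43.8 kb above Ccl5, 22 reads, 1.45 RPM, 0.91 to 2.19). The other was at chr11:83414171-83414370 (46.7 kb below Ccl3, 16 reads, 1.05 RPM, 0.60 to 1.71), at the lowest height that the GRdim list holds. Each was 31.4 kb from the other and at least as far from the other GRdim peaks. No position of Ccl9 or Ccl6 was used, so neither peak is tied to either gene.

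The cluster of Ccl2, Ccl7 and Ccl12 held 3 GRdim peaks of 1.12 to 1.71 RPM (median 1.32) and 0 WT peaks. The 3 genes encode the monocyte attractants MCP-1, MCP-3 and MCP-5, ligands of CCR2. The 3 peaks summed to 4.15 RPM (63 reads, 48.4 to 80.6) over 600 bp, a mean of 1.4 RPM per peak.

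All 3 lay on the Ccl2 side of the window. The tallest, at chr11:81820408-81820607, was 28.5 kb below the stated position of Ccl2 and held 26 reads (1.71 RPM, 1.12 to 2.51; rank 160 of 822). The next, at chr11:81836325-81836524, was 12.6 kb below Ccl2 and held 20 reads (1.32 RPM, 0.80 to 2.03). The lowest was also the nearest to Ccl2, 3.2 kb above it at chr11:81852073-81852272, with 17 reads (1.12 RPM, 0.65 to 1.79). The heights fell toward and past Ccl2, but their intervals overlap and the order is not resolved. Neighbouring peaks were 15.9 and 15.7 kb apart. The rest of the window above that peak, toward Ccl7, Ccl11 and Ccl12 by gene order, held no peak of either list. The nearest WT peak was 1007.1 to 1038.8 kb away, at chr11:82859180-82859379, far outside the window (2.30 RPM, overlapped by a GRdim peak of 1.85 RPM).

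**Figure D2:**
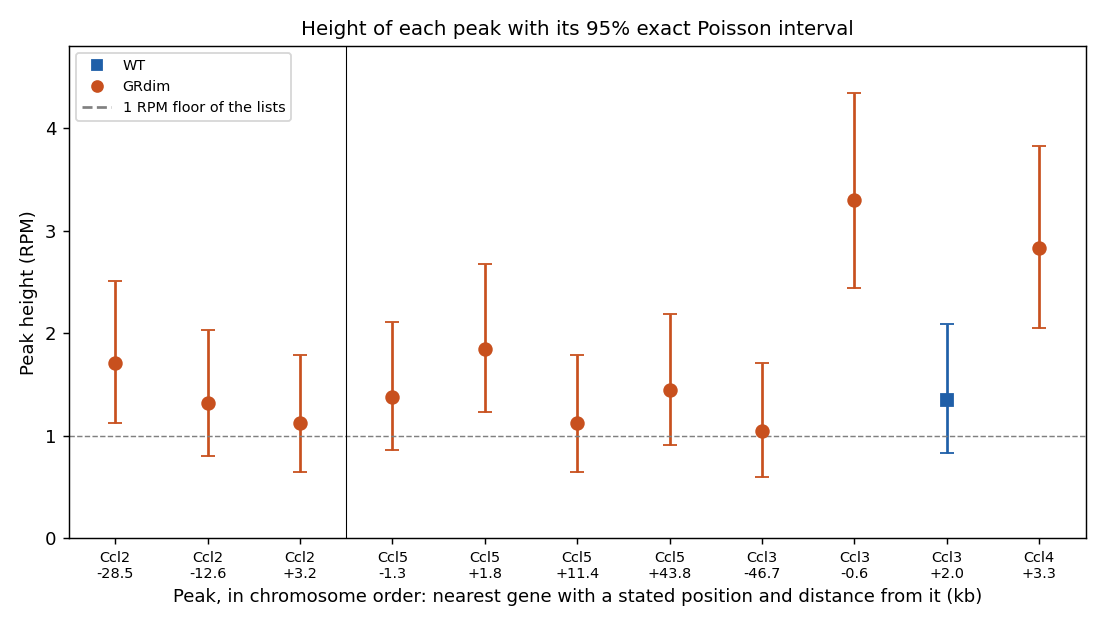
Height in RPM of each of the 11 peaks in chromosome order, labelled by the nearest gene with a stated position and the distance from it in kb, with bars for the 95% exact Poisson interval (counting error only) and a dashed line at the 1 RPM floor. The peaks at Ccl3 and Ccl4 reach 3.30 and 2.83 RPM, and the other 8 GRdim peaks lie between 1.05 and 1.85 RPM with bars that overlap.

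The 10 GRdim peaks differed among themselves mainly by the pair at Ccl3 and Ccl4. The interval of the Ccl3 peak lay wholly above those of 6 of the other 9 GRdim peaks, and that of the Ccl4 peak above those of 4. The other 8 peaks lay between 1.05 and 1.85 RPM. The lower bound was below the 1 RPM floor for 6 of the 10. The tallest of these 6 stood at 1.45 RPM, and 64.4% of the whole GRdim list was lower still, so such a bound is usual in this list. At or above the median of the GRdim list stood 7 of the 10, and 57.5% of the whole list did. Within the list as a whole the members are thus spread from its floor to its top 20.

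**Figure D3:**
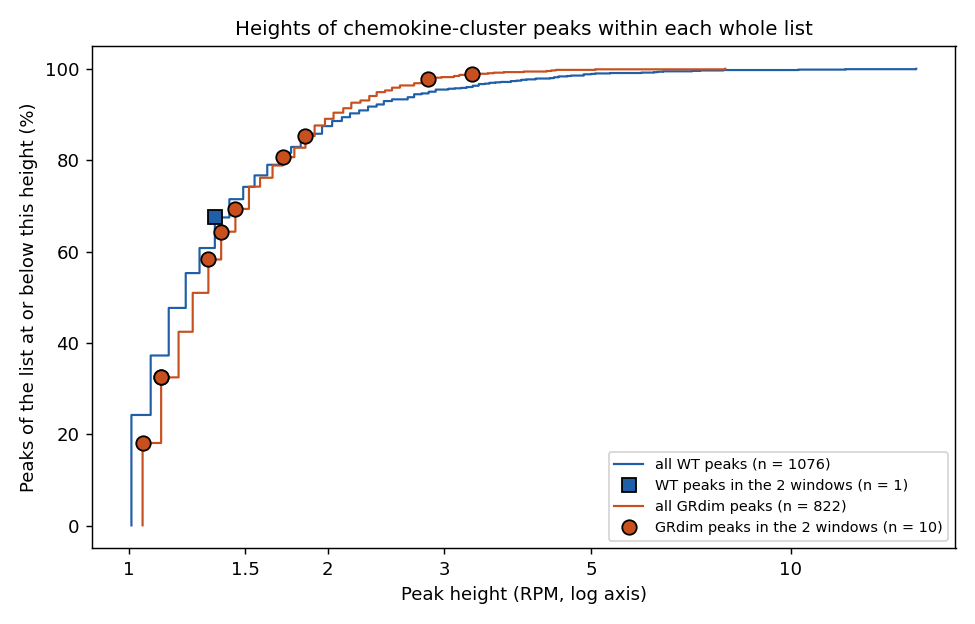
Cumulative share of all peaks of each list (percent, vertical axis) at or below a height (RPM, log axis), with the 10 GRdim peaks (circles, 2 of which coincide at 1.12 RPM) and the 1 WT peak (square) of the windows marked on their own list's line. The members run from the GRdim floor of 1.05 RPM to 3.30 RPM, and the WT peak at 1.35 RPM stands above 60.8% of its list.

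Side by side, the tallest GRdim peak was 3.30 RPM in the Ccl5 to Ccl4 window and 1.71 RPM in the Ccl2 window, with intervals that overlap at their ends (2.44 to 4.34 and 1.12 to 2.51), and the medians were 1.45 and 1.32 RPM. An overlap at the ends does not show that these peaks are alike in height. The interval of the Ccl3 peak lay wholly above those of the lower peaks of the Ccl2 window (0.80 to 2.03 and 0.65 to 1.79). Whether the clusters differ in height was not tested. Both clusters had low peaks within 5 kb of a stated gene position, at Ccl5 and Ccl2, and 5 of the 10 GRdim peaks and the 1 WT peak lay that near. Over the whole list, the nearest other GRdim peak was 387.9 kb away in the median, and for the 10 members it was 3.1 to 31.4 kb away. The windows were chosen with the number of their peaks known, so this close spacing follows from the choice and is only a description.

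The borders of the windows matter for WT. The last peak inside the upper border of the first window was the GRdim peak at Ccl4. Outside that border, by 20.7 kb, the WT list had a peak of 2.03 RPM (30 reads). It lay at chr11:83530645-83530844, 54.7 kb above Ccl4, and no GRdim peak overlapped it. It was taller than the WT peak inside. The next site, 40.8 kb outside, was listed in both libraries with midpoints 5 bp apart, at chr11:83550661-83550860 in WT (1.08 RPM, 16 reads, 0.62 to 1.76) and chr11:83550666-83550865 in GRdim (1.32 RPM, 20 reads, 0.80 to 2.03). The heights of that shared site lie within each other's intervals. Below the first window the nearest peaks were at chr11:83035899-83036098 in WT (254.0 kb away, 1.01 RPM) and at chr11:82896326-82896525 in GRdim (393.6 kb away, 1.45 RPM). Below the Ccl2 window they were at chr11:80220194-80220393 in WT (1579.7 kb away, 1.08 RPM) and at chr11:80336419-80336618 in GRdim (1463.5 kb away, 1.12 RPM). Above it the nearest were the overlapping pair named before, of which the GRdim peak, at chr11:82859134-82859333, was 859.2 kb away.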

How the data were processed

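GR ChIP-seq libraries of WT and GRdim macrophages were analysed as the peak lists that the authors deposited, 1 for each genotype. Per the submitters' processing notes, the authors aligned reads with Bowtie to mm9; the Bowtie version, the peak caller with its settings and the role of the input were not given in the sources used here. Column 5 of the deposited lists was taken as RPM from its values and the peak names, which carry the mark 1rpm. Midpoints were compared with windows that were chosen, like the gene list, with earlier results of these data known. Every peak in the windows is named, by a rule that also names the nearest peak beyond each border. An overlap of 1 base or more made 2 peaks shared. Read numbers come from the step, searched from 0.05 to 0.09 RPM, that made the most heights whole within 0.1 read, and they depend on that search range. The step fit and overlap count were tested on simulated data. The simulated steps were drawn inside the search range, so they cannot test the range itself. The values have 1 library per genotype and thus no test. Positions are printed 1-based. Scripts ran in Python 3.11.15 with scipy 1.17.1 and numpy 2.4.6, and figures were drawn with matplotlib 3.10.9. Alternatives covered window borders, heights, merging, list length and overlap.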

Additional observations from a re-analysis of the deposited data

How the results depend on the processing

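Of 66 alternative values, 52 kept within their counting interval or within 1.5 times the count, and 14 moved. With the windows widened by 50 or by 100 kb, the first cluster held 3 WT peaks in place of 1, with a summed height of 4.46 RPM in place of 1.35, and 1 shared site in place of 0, since either widened window takes in the WT peak of 2.03 RPM and the shared site above Ccl4; GRdim counted 8 in place of 7. With midpoints within 5 kb counted as shared, 1 GRdim peak of the first cluster, that at Ccl3, met a WT peak. At heights of 1.5 RPM or more the first cluster held 3 GRdim peaks (7.98 RPM) and 0 WT peaks, and the Ccl2 cluster 1 GRdim peak (1.71 RPM). At or above each list's median the summed GRdim heights were 10.81 and 3.03 RPM. Fewer peaks entering the sum accounts for these by construction. Merging peaks within 1 kb and cutting the lists to equal length changed no count in either cluster, and neither could. The peaks lie 3.1 kb or more from the nearest peak of their own list. The GRdim list, with 822 peaks, is the shorter, and the WT peak has rank 351. These alternatives are among the 52 that kept. The floor and the 16 to 28 reads of most peaks limit any order among them. No paired analysis was possible because each genotype has 1 library, and no library could be left out.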

Other observations

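Among spans of 220 kb that begin at a GRdim peak, the one that starts at Ccl5 held 8 GRdim peaks, including the shared site above Ccl4, and no span away from it held more than 6, on chromosome 16. In the WT list the most in such a span was 7, on chromosome Y, or 6, on chromosome 16, without Y. The cluster was chosen for its number of peaks, so its place at the head of this order is a description. The Ccl2 cluster does not stand out in this way. With spans of 200 kb it held 3 GRdim peaks, and 43 spans elsewhere that begin at a GRdim peak held 3 or more.

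The promoter windows of 2 of the other 3 chemokine genes in the Ccl2 cluster were matched. Ccl8, which encodes MCP-2, had a TATA box 32 bases before its start, at nearly the same place as Ccl12. It also held the motif GAGGAA on the opposite strand, 240 bases before its start. Ccl8 and Ccl12 shared a run of 11 bases, but at different places. The run begins 81 bases before the start of Ccl8 and at base 27 after the start of Ccl12. Ccl1 had overlapping NF-κB consensus matches, on the gene's strand from 196 bases before its start and on the opposite strand from 195 bases before it. Neither held the GR half-site AGAACA. No peak was listed in the part of the window where these genes follow Ccl12.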
